A study of Mus musculus with 16 samples.

Results

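Regulatory CD4 T cells of the naive spleen were described here from single-cell RNA-seq of CD45+ cells. A cell was counted as a regulatory T cell when it held at least 1 UMI of Foxp3 and at least 1 UMI of Cd3e, Cd3d, or Cd3g, and no UMI of Cd8a, Cd8b1, Cd79a, or Lyz2. A UMI is a molecular barcode that marks 1 captured transcript. The members were thus chosen by their measured Foxp3, CD3, CD8, Cd79a, and Lyz2 UMIs, and those genes are described without a test. The rule found 400 regulatory T cells among 47060 CD45+ cells. They were compared with 2584 conventional CD4 T cells, which passed the same limits but held a Cd4 UMI and no Foxp3 UMI.

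The study followed accepted and rejecting kidney allografts in mice, and the naive spleen served as the untreated reference. Per the labels, the naive spleen cells came from C57BL/6J WT mice without a transplant, and they were sorted as viable CD45+ cells. Library tags in the cell barcodes told 5 libraries apart, named libraries 1 to 5 here. A smaller comparison used CD45+ cells of rejecting kidney grafts at 1 week, in 2 libraries tagged 2 and 3. The labels give C57BL/6J and WT for these too, whereas the study describes the rejecting model as a B6 kidney placed in a DBA/2J recipient. No label gives age, or says that the libraries came from separate mice, so all p-values measure the spread between these libraries. The study's methods treat each mouse as a separate sample but give no replicate number for the naive spleen.

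Foxp3 encodes the transcription factor that defines regulatory T cells, which hold back immune responses of other lymphocytes. These cells depend on IL-2, which they take up through a high-affinity receptor whose alpha chain is Il2ra (CD25). Ctla4 removes costimulatory ligands from antigen-presenting cells, and Ikzf2 encodes Helios, a zinc finger factor common in regulatory T cells of thymic origin. In the spleen, resting (central) regulatory T cells recirculate through lymphoid tissue, and effector regulatory T cells carry genes of activation and tissue entry.

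The 5 libraries held 8052 to 11340 cells each, 30054753 to 37016197 UMIs each, and a median of 2716 to 3372 UMIs per cell. Libraries 1 to 5 held 70, 83, 80, 106, and 61 regulatory T cells, with 198495 to 405786 UMIs per library. Their median depth was 3123 UMIs and 1321 genes per cell, against 3712 UMIs and 1358 genes in conventional cells. Of the 47060 cells, 477 shared their barcode sequence with a cell of another library, and 1 of these was a regulatory T cell.

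Regulatory T cells made up 0.850% of CD45+ cells (exact 95% interval 0.769% to 0.937%), and the share varied between libraries. It was 0.617% in library 1, 1.03% in library 2, 0.886% in library 3, 1.17% in library 4, and 0.637% in library 5. The intervals of libraries 1 and 5 ended at 0.779% and 0.818%, below the lower bounds of libraries 2 and 4, which were 0.822% and 0.959%. Libraries 1 and 5 also had the lowest median depth, at 2716 and 2834.5 UMIs per cell, against 3119 and 3360 in libraries 2 and 4. Membership needed a captured Foxp3 UMI, and the part of depth in these shares was not tested. The share of CD4 T cells depends on how these are counted. Regulatory T cells were 5.86% of all cells within the limits on CD3, CD8, Cd79a, and Lyz2, and among such cells with a Cd4 UMI 4.54% held Foxp3. Relative to regulatory and conventional CD4 T cells together, the share was 13.4%, but only the conventional cells needed a Cd4 UMI, which raises this figure. In libraries 1 to 5 it was 11.02%, 14.85%, 14.01%, 14.91%, and 12.01%. On this last scale the lowest library had an interval of 8.69% to 13.7% and the highest had one of 12.4% to 17.7%, so they overlapped. All such intervals cover counting error only.

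**Figure D1:**
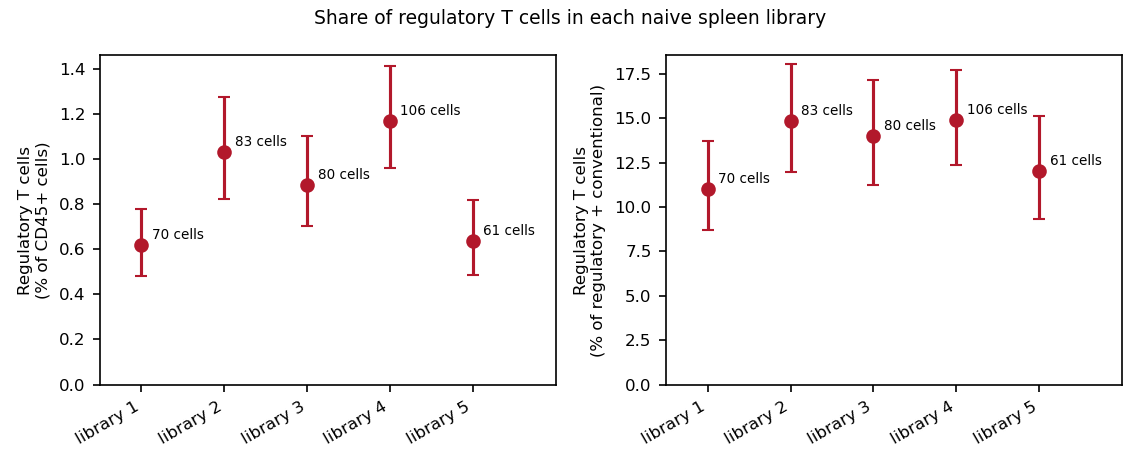
Share of regulatory T cells among CD45+ cells (left) and among regulatory and conventional CD4 T cells (right), in percent, for each of the 5 naive spleen libraries with exact 95% intervals. Libraries 1 and 5 sit lowest on both scales, at 0.617% and 0.637% of CD45+ cells.

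Foxp3 transcripts were sparse. Of 674 cells with a Foxp3 UMI, 39 held no CD3 UMI, 63 held CD3 and CD8 UMIs, and 172 held Cd79a or Lyz2 UMIs, which left the 400. Among them, 203 cells held 1 Foxp3 UMI, 111 held 2, and 86 held 3 or more. A Cd4 UMI was found in 123 of the 400, so the other 277 were placed in the CD4 lineage by the lack of CD8 transcripts alone. Free RNA can place UMIs in cells that do not express a gene, and as a background 26 of 29038 B cells held a Foxp3 UMI (0.0895%, median 2686 UMIs). The share was 0.116% in myeloid cells (1 of 860, median 4764 UMIs) and 0.653% in CD8 T cells (32 of 4898, median 4327.5 UMIs). Of all 6824 cells within the limits on CD3, CD8, Cd79a, and Lyz2, whether or not they held Cd4, 5.86% had a Foxp3 UMI. None of the 400 was found in the matrix of CD8 T cells that the authors deposited separately for the naive spleen, but 36 of the 2584 conventional cells were.

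The other markers of regulatory T cells, which the rule did not use, were detected in far larger shares of these cells than of conventional cells. The genes lie on GRCm38 at chromosome 2 from 11642807 to 11693193 on the plus strand (Il2ra), chromosome 1 from 69531214 to 69687245 on the minus strand (Ikzf2), and chromosome 1 from 60887000 to 60915832 on the plus strand (Ctla4). Foxp3 itself lies on chromosome X from 7573644 to 7595245 on the plus strand. These are whole gene extents, and the 3′ assay does not place reads within them. After each cell was thinned to 1000 UMIs, Ikzf2 was detected in 54.4% of regulatory and 4.84% of conventional cells. Il2ra was detected in 23.8% and 1.20%, and Ctla4 in 10.3% and 0.929%. Without thinning the shares in regulatory T cells were 77.5%, 45.8%, and 32%. At least 2 of these markers were found together in 218 of 400 regulatory T cells (54.5%) and in 80 of 2584 conventional cells (3.096%), while 43 regulatory T cells held none of the 3.

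Cells on both sides of the Foxp3 threshold are described without a test. With 1 Foxp3 UMI, just inside the rule, Ikzf2 was detected in 54.2%, Il2ra in 24.1%, and Ctla4 in 7.88% of thinned cells. With 3 or more Foxp3 UMIs the shares were 60.5%, 29.1%, and 13.95%. With 2 Foxp3 UMIs they were 50%, 19.1%, and 11.8%, so Ikzf2 and Il2ra did not climb steadily with the number of Foxp3 UMIs. Tnfrsf18 was detected in 3.87%, 15.3%, 11.8%, and 27.9% of cells with 0, 1, 2, and at least 3 Foxp3 UMIs, and Izumo1r in 7.63%, 26.1%, 26.4%, and 40.7%. The 172 Foxp3-positive T cells excluded for a Cd79a or Lyz2 UMI held Ikzf2 in 46.5%, Il2ra in 15.7%, and Ctla4 in 11.6% of thinned cells.

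**Figure D2:**
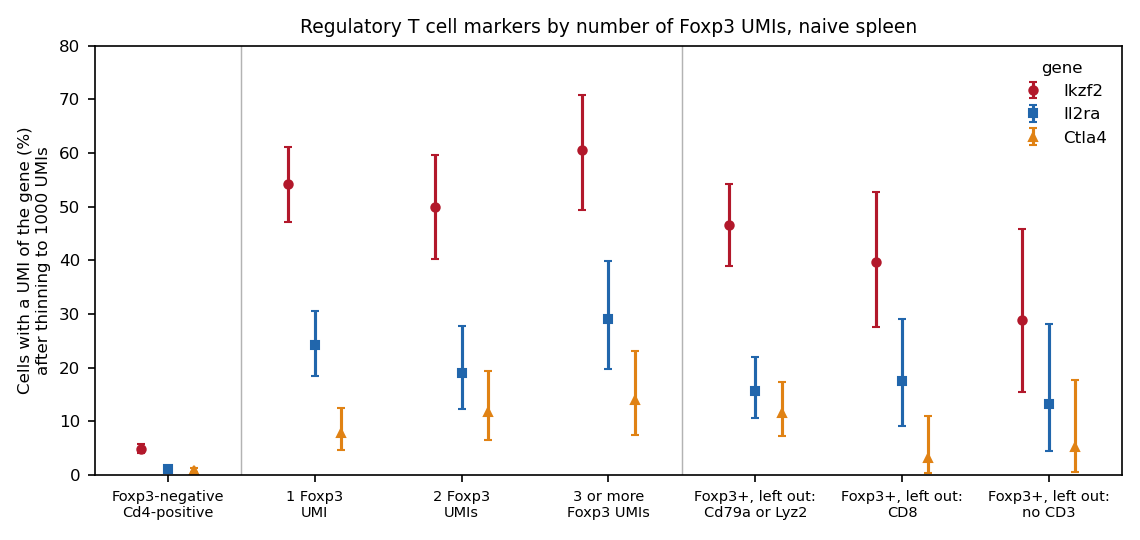
Percent of cells with a UMI of Il2ra, Ikzf2, or Ctla4 after thinning to 1000 UMIs, by number of Foxp3 UMIs, with exact 95% intervals. Ikzf2 is at 4.84% in Cd4-positive cells without Foxp3 and at 54.2% with 1 Foxp3 UMI.

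UMIs were then summed per library and population, scaled to the total of that population's UMIs in the library (CPM), and compared by edgeR with the library as a block. Of 7150 genes tested, 899 were higher and 245 lower in regulatory T cells at an adjusted p of at most 0.05, so 16% of genes passed in either direction, 12.6% upward and 3.43% downward. The genes of the rule (Foxp3, Cd3e, Cd3d, Cd3g, Cd4, Cd8a, Cd8b1, Cd79a, Lyz2) were left out of the test. Under plain totals the median gene lay 0.14 log2 units higher in regulatory T cells. With TMM factors, which put that median at -0.002, 540 genes (7.55%) were higher and 409 (5.72%) lower, and DESeq2 gave 324 and 218. In this and the later comparisons a gene low in 1 group passed the filter on low counts only through the group where it was high, so its direction was fixed, and counts over the tested members of a list are descriptions.

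All 3 markers rose. Il2ra was at 322, 271, 391, 298, and 312 CPM in regulatory T cells of libraries 1 to 5, and at 9.88, 7.19, 16.7, 8.08, and 16.6 CPM in conventional cells. The log2 difference was 4.81 ± 0.14 (SE, 5 libraries per population, edgeR adjusted p = 2.6e-40), a fold of 28.1. Ikzf2 was at 1132, 1142, 1143, 1037, and 897 CPM against 59.3, 90.4, 98.9, 118, and 92.2 CPM, a log2 difference of 3.53 ± 0.09. Ctla4 was at 131, 123, 185, 128, and 85.6 CPM against 15.9, 11.8, 15.2, 13.2, and 1.33 CPM, a log2 difference of 3.47 ± 0.20. For each of the 3 genes every regulatory library stood above every conventional one. Foxp3 was at 518 to 554 CPM in the regulatory libraries by construction, and Cd4, which only the conventional cells had to hold, was at 85.6 to 136 CPM against 346 to 428 CPM.

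The receptor of IL-2 differed by chain. Il2rb, the signalling beta chain, was at 377, 248, 298, 335, and 232 CPM in regulatory and 43.3, 47.8, 39.7, 54.3, and 37.8 CPM in conventional cells, a log2 difference of 2.72 ± 0.12 (edgeR adjusted p = 6.9e-31). Il2rg, the gamma chain shared with other cytokine receptors, was at 207 to 312 against 241 to 298 CPM and did not pass (0.10 ± 0.09, adjusted p = 0.56). Il7r, the IL-7 receptor alpha chain, fell by 0.59 on the log2 scale, with 322 to 493 against 580 to 648 CPM, but did not pass in thinned cells (-0.25). The alpha and beta chains of the IL-2 receptor were therefore higher, and the shared chain was not shown to differ.

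Several targets and feedback inhibitors of IL-2 signalling were higher, and others did not pass. Pim1, a kinase induced by STAT5, was at 423, 442, 515, 468, and 348 CPM against 159, 130, 163, 133, and 89.6 CPM, a log2 difference of 1.72 ± 0.09. The feedback inhibitors Cish (2.27 ± 0.20), Socs2 (3.54 ± 0.32), and Socs1 (1.49 ± 0.18) were higher in regulatory T cells, and Stat5a rose by 0.83 ± 0.24. Of the 15 genes in the list of IL-2 and common gamma receptors and signalling, all were tested, 8 were higher, 1 was lower, and 6 did not pass. Their median log2 difference was 0.57, against 0.14 for all genes tested, of which 12.6% were higher and 3.43% lower. Jak1, Jak3, Stat5b, Bcl2, and Bcl2l11 were among the 6. Mcl1, a survival factor among the 8, lost its call with TMM factors, in DESeq2, in depth-matched cells, and among members with a Cd4 UMI (0.21 to 0.34). The call of Stat5a was lost in DESeq2, without library 4 (0.67), and among members with a Cd4 UMI or at least 2 Foxp3 UMIs (0.94 and 0.81), and with TMM factors 7 of the list were higher and 1 lower, with a median of 0.43.

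The surface receptors with values in this paragraph rose by 1.99 to 4.48 log2 units. Tnfrsf4 (OX40), a costimulatory receptor, was at 146, 255, 309, 222, and 146 CPM in regulatory and 8.78, 19.0, 27.9, 18.7, and 17.3 CPM in conventional cells, a log2 difference of 3.56 ± 0.15. Gpr83, an orphan receptor known from regulatory T cells, was at 80.5, 96.7, 114, 81.3, and 90.7 CPM against 6.37 to 7.96 CPM, a log2 difference of 3.72 ± 0.24. Lrrc32 (GARP), which displays latent TGF-β on the surface, was at 20.1, 64.5, 107, 69.0, and 40.3 CPM against 0.664 to 3.43 CPM, a log2 difference of 4.48 ± 0.32. Of these 3 genes Lrrc32 varied most between regulatory libraries, but none of the 3 overlapped between populations. Tnfrsf18 (GITR) rose by 2.16 ± 0.13, Tnfrsf9 (4-1BB) by 2.52 ± 0.30, Nrp1 (neuropilin 1) by 2.76 ± 0.17, Izumo1r (folate receptor 4) by 1.99 ± 0.10, and Itgb8, an integrin chain that activates TGF-β, by 3.46 ± 0.40. Of 16 regulatory T cell-associated genes, 14 were tested and all 14 were higher, with a median log2 difference of 2.77. Over all genes tested 12.6% were higher, and the median was 0.14. Lrrc32 and Gpr83 are examples of members whose direction the filter fixed, since they were low in conventional cells. Entpd1 and Plagl1 did not pass the filter on low counts. These 14 also include Ikzf4, Nt5e, Capg, Socs2, Swap70, and Cd83.

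Among 17 costimulatory and inhibitory receptors, 11 were higher, none was lower, and 3 did not pass, with Tigit, Lag3, and Havcr2 removed by the filter on low counts. The median log2 difference was 1.54, against 0.14 for all genes tested, of which 12.6% were higher. Besides the genes above, Icos (1.41 ± 0.14), Pdcd1 (PD-1, 1.67 ± 0.32), Tnfrsf1b (the TNF receptor type 2, 2.09 ± 0.27), Cd200, Cd27, and Cd5 rose. Cd5 lost its call in DESeq2, in thinned and depth-matched cells, and among members with a Cd4 UMI or at least 2 Foxp3 UMIs (0.23 to 0.30). Cd28, Cd226, and Btla did not pass. Icos was at 101 to 163 CPM in regulatory and 40.6 to 56.5 CPM in conventional libraries, which did not overlap.

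Several suppressive mediators had few UMIs. Of 13 such genes 6 were tested and 5 rose, against 12.6% of all genes tested that were higher. The 5 were Lrrc32, Itgb8, and Nt5e (CD73, which makes adenosine, 2.01 ± 0.18), with Tgfb1 (0.59 ± 0.17) and Lgals1 (galectin 1, 1.05 ± 0.11). Tgfb1 lost its call with TMM factors (0.45), in DESeq2 (0.46), in depth-matched cells (0.36), among members with a Cd4 UMI (0.68), and without library 1 (0.44). The other tested gene, Prf1 (perforin), did not pass. The cytokine Il10 was found in 8 of 400 regulatory and 3 of 2584 conventional cells, and Ebi3, a subunit of IL-35, in 15 and 11 cells. Gzmb (granzyme B) was found in 13 and 10 cells, Fgl2 in 22 and 20, and Entpd1 (CD39) in 25 and 24. These counts of cells were not adjusted for depth, and the 5 genes were filtered out before the test, so no call was made on them.

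**Figure D3:**
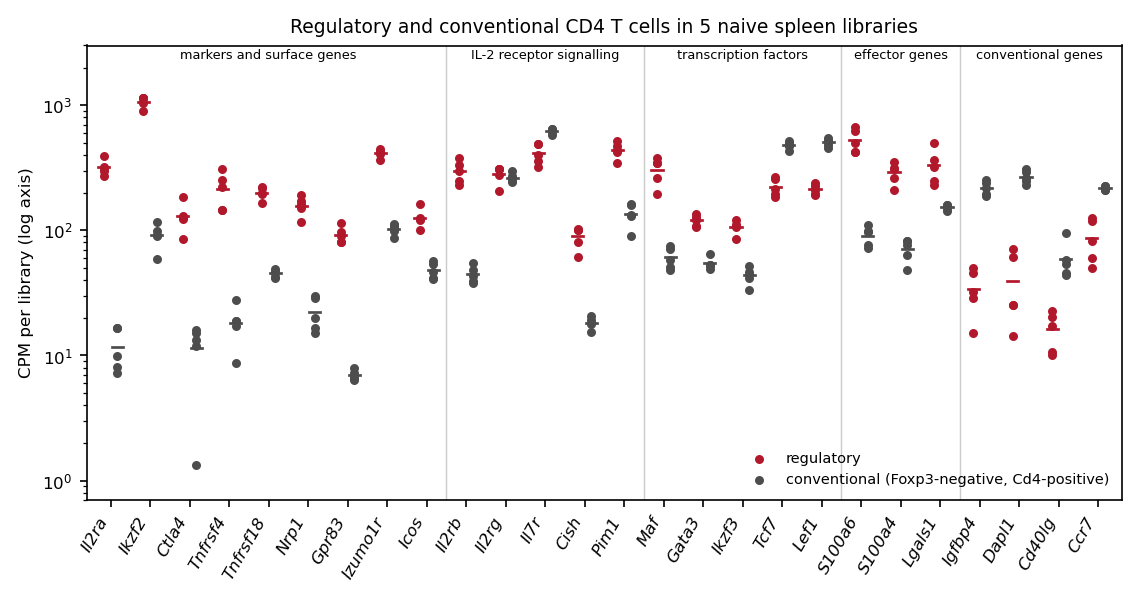
CPM per library on a log axis for genes named in the text, in regulatory and conventional CD4 T cells of the 5 naive spleen libraries (points) with their mean (bars). Il2ra, Ikzf2, Ctla4, Tnfrsf4, and Il2rb do not overlap between the populations, and Il2rg does.

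Transcription factors moved in both directions. Of 26 genes 22 were tested, 10 were higher, 4 were lower, and 8 did not pass, and the median of 0.20 lay near the 0.14 of all genes. Over all genes tested 12.6% were higher and 3.43% lower. With TMM factors 10 of the 22 transcription factors were higher and 8 lower. Maf, a factor of effector and IL-10-producing T cells, was at 262, 377, 344, 347, and 196 CPM against 51.0, 71.4, 58.3, 74.9, and 47.8 CPM, a log2 difference of 2.33 ± 0.11. The Ikaros relatives Ikzf4 (Eos, 2.77 ± 0.25) and Ikzf3 (Aiolos, 1.27 ± 0.15, not past the threshold in thinned cells) were higher, and Ikzf1 (Ikaros) fell by 0.78. Gata3 rose by 1.13 ± 0.14, Prdm1 (Blimp-1) by 1.84 ± 0.37, Batf by 1.13 ± 0.21, and the NF-κB subunit Rel by 0.99 ± 0.15. Lef1 and Tcf7, factors of resting T cells, were lower. Lef1 was at 191, 226, 209, 239, and 196 CPM against 455, 547, 484, 529, and 508 CPM and fell by 1.24 on the log2 scale, and Tcf7 was at 185 to 266 against 431 to 522 CPM and fell by 1.13. Neither overlapped between populations. Id2 fell by 0.97 and Id3 rose by 0.71 ± 0.15. Id2 lost its call among members with a Cd4 UMI, and Id3 lost it in depth-matched and in thinned cells.

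Genes of resting recirculation were lower in part. Ccr7, the receptor that guides cells into T zones, was at 60.4, 126, 81.7, 118, and 50.4 CPM against 209 to 228 CPM and fell by 1.23 on the log2 scale (edgeR adjusted p = 8.4e-12). S1pr1, needed for exit from lymphoid tissue, was at 252 to 303 against 316 to 459 CPM and fell by 0.38. Klf2, a factor that drives S1pr1, was at 408 to 599 against 468 to 589 CPM and did not pass under plain totals (-0.15 ± 0.08, adjusted p = 0.22), but passed as lower with TMM factors (-0.29) and without library 1 (-0.25). Of 9 central regulatory T cell genes 6 were lower, none was higher, and 3 did not pass, with a median of -0.59. Over all genes tested 3.43% were lower, and the median was 0.14. All 9 are measured here against conventional CD4 T cells, not against effector regulatory T cells. Of 21 homing and adhesion receptors 12 were tested, with 6 higher and 2 lower, and TMM factors gave 2 and 3. The shares over all genes tested were 12.6% and 3.43%, and with TMM factors 7.55% and 5.72%. Ccr2, a receptor for entry into inflamed tissue, rose by 1.99 ± 0.32, and Cxcr4, Itgb1, Itga4, Itgb7, and Cd44 were the other 5 higher. Of those 5, all but Cd44 lost their call with TMM factors, and Cd44 lost it in DESeq2 and in thinned and depth-matched cells (0.58, 0.35, and 0.25). Cxcr4 also lost its call without library 2 or 5 (0.67 and 0.72), and Itgb1 without library 1 or 5 (0.29 and 0.39).

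The largest decreases included genes of resting and helper CD4 T cells. Pdlim4, a PDZ and LIM domain protein, was at 10.1, 0, 7.10, 2.46, and 5.04 CPM in regulatory and 69.7, 58.1, 56.3, 60.6, and 73.7 CPM in conventional cells, and fell by 3.82 on the log2 scale. Pde3b, a phosphodiesterase that degrades cyclic AMP, fell by 2.97. Igfbp4 was at 45.3, 29.0, 49.7, 32.0, and 15.1 CPM against 189 to 253 CPM and fell by 2.64. Dapl1 was at 14.2 to 70.9 CPM against 229 to 309 CPM and fell by 2.62. Cd40lg, the ligand by which helper T cells activate B cells, fell by 1.90, and Themis, a signalling protein of the T cell receptor, by 1.41. Each of these stood lower in all 5 libraries. Of 12 conventional and helper CD4 genes 7 were tested, 5 were lower, and none was higher, against 3.43% of all genes tested that were lower. The 5 were Pde3b, Igfbp4, Dapl1, Cd40lg, and Themis, already named above by size, so this count adds no separate support. Il2, Il4, Il21, Ifng, and Il17a were removed by the filter on low counts. The rule of size also named Als2cl, Gm12840, and Rflnb among the decreases and Coro2a (3.14 ± 0.21), Fam129a (2.99 ± 0.23), and the unnamed gene model Gm28112 (3.25 ± 0.28) among the increases.

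**Figure D4:**
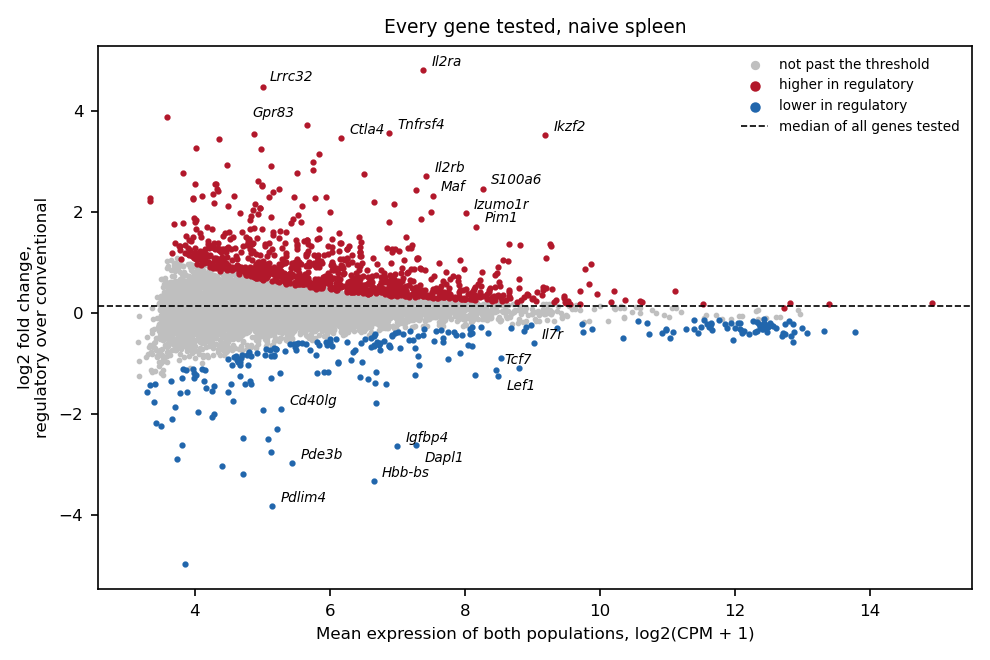
Log2 fold change of regulatory over conventional CD4 T cells against mean expression, log2(CPM + 1), for the 7150 genes tested in the 5 naive spleen libraries. The 899 genes higher and 245 lower are colored, with Il2ra at 4.81 and Pdlim4 at -3.82.

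Antigen receptor response genes rose in part, with 7 of 13 tested higher and none lower under plain totals. Their median log2 difference was 0.39, against 0.14 for all genes tested, of which 12.6% were higher. With TMM factors 6 were higher and 1, Ier2, was lower. Nfkbia, the NF-κB inhibitor that NF-κB itself induces, rose by 0.88 ± 0.10, Fosb by 1.06 ± 0.16, Junb by 0.50 ± 0.08, and Fos by 0.54 ± 0.13. Fos lost its call in DESeq2, in thinned and depth-matched cells, and among members with a Cd4 UMI (0.29 to 0.46), and Fosb lost it in thinned cells (0.76). Nr4a1, Egr1, and Cd69 did not pass. Of 12 interferon-stimulated genes 10 were tested and 5 rose, among them Ifi27l2a (0.97 ± 0.06). The median of the 10 was 0.38, against 0.14 for all genes tested, and with TMM factors 4 rose. Of the cell cycle genes, Mki67 was detected in 19 of 400 regulatory and 47 of 2584 conventional cells, and 23 of its 51 UMIs in regulatory T cells came from 1 cell. Its difference of 0.54 ± 0.30 did not pass, passed among members with a Cd4 UMI (1.34) and without library 2 or 3 (0.81 and 0.83), and turned to -0.44 without library 4. Of the other 3 cell cycle genes tested, Pclaf (1.34 ± 0.31) and Top2a (0.75 ± 0.26) rose and Stmn1 fell by 0.61, and each of these calls was lost in DESeq2 and in depth-matched cells. Pclaf was at 0.68 in depth-matched cells and at 0.37 with at least 2 Foxp3 UMIs, where it did not pass either. Top2a also lost its call with TMM factors and without library 1, 4, or 5 (0.43, 0.37, and 0.72), and Stmn1 without library 2, 3, or 5 (-0.54, -0.32, and -0.57).

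Most effector regulatory T cell genes tested were higher, and several of the list were found in few cells. Of 16 genes 10 were tested, 9 rose, and Cxcr3 did not pass, with a median of 1.27. Over all genes tested 12.6% were higher, and the median was 0.14. S100a6, a calcium-binding protein of activated T cells, was at 664, 419, 419, 495, and 620 CPM against 76.3, 98.7, 96.5, 110, and 71.7 CPM, a log2 difference of 2.47 ± 0.11. S100a6 UMIs were present in 97 of 400 regulatory T cells, with up to 79 in 1 cell. S100a4, its relative, rose by 1.99 ± 0.12. Klrg1, a receptor of terminal effector cells, was filtered out before the test. It was found in 23 regulatory T cells with 96 UMIs and in 8 conventional cells with 12 UMIs. The Klrg1-positive cells were 3, 7, 6, 6, and 1 in libraries 1 to 5. Itgae (CD103) was found in 16 regulatory and 11 conventional cells, and Il1rl1 (the IL-33 receptor) in 13 and 7.

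Among regulatory T cells thinned to 1000 UMIs, 58 held an S100a6 UMI and 341 did not (median depths before thinning 3549 and 3056 UMIs). This split was made after the values were seen and is given as a description. S100a4 was detected in 48.3% of the cells with S100a6 and 2.93% of those without, Lgals1 in 44.8% and 10.6%, Icos in 34.5% and 7.62%, and Klrg1 in 17.2% and 1.76%. Foxp3 was retained in 50% and 50.4%. Ikzf2 was detected in 72.4% and 51.3%, and Il2ra was detected in 12.1% and 25.8%. Tcf7 was found in 12.1% and 21.1%, Lef1 in 12.1% and 18.8%, and Il7r in 36.2% and 32.8%. Cd74, which B cells and other antigen-presenting cells express, was found in 17.2% and 5.28%, and its part in the split was not tested.

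RNA of other cells was present in both populations. After thinning, the B cell marker Ighm was detected in 30.3% of regulatory and 19.6% of conventional cells. The summed level of 10 B cell markers was 664 to 1003 CPM in regulatory and 428 to 518 CPM in conventional libraries, and all 10 were detected in both. Ighm (0.91 ± 0.09), Cd74 (0.89 ± 0.14), and H2-Aa (0.79 ± 0.16) passed as higher, although Cd74 and H2-Aa lost their calls in depth-matched and in thinned cells, and H2-Aa also in DESeq2 and with at least 2 Foxp3 UMIs. The summed level of 8 myeloid markers was 111 to 402 against 91.5 to 240 CPM, and that of 5 NK cell markers was 29.6 to 181 against 61.05 to 99.18 CPM. Of 3 myeloid markers tested, Fcer1g, Cst3, and Tyrobp, all were higher, and neither of the 2 NK cell markers tested passed. Without library 1 or 3 the calls of Fcer1g (0.65 and 0.71) and Tyrobp (0.65 and 0.61) were lost, as they were in DESeq2 and without the library block. The 4 plasma cell markers summed to 38.7 to 90.5 against 26.9 to 31.2 CPM, and Xbp1 was higher by 0.97 ± 0.23 but lost its call in DESeq2 and among members with a Cd4 UMI or at least 2 Foxp3 UMIs, with Sdc1 at 0 in regulatory T cells. The 5 gamma-delta markers summed to 0 to 10.7 against 11.3 to 26.3 CPM, and Trgv2 and Tcrg-C1 were at 0 in regulatory T cells. Cells with a UMI of further B cell, myeloid, NK cell, or gamma-delta T cell genes, such as Ms4a1, Csf1r, Ncr1, or Trdc, were also left out as an alternative, which kept 336 regulatory T cells. It gave 824 genes higher and 231 lower, and 720 of the 899 and 209 of the 245 were among them. Red cell transcripts differed by library. Hbb-bs was at 65.4, 3.22, 21.3, 2.46, and 0 CPM in regulatory and 637, 0.514, 185, 76.7, and 1.99 CPM in conventional cells, and it passed as lower although the order turned in library 2.

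Regulatory T cells were next divided by Ikzf2. A UMI of Ikzf2 was present in 310 cells and absent in 90, and the positive share was 78.6%, 79.5%, 85.0%, 76.4%, and 65.6% in libraries 1 to 5. Median depth was 3127 and 3084.5 UMIs, and libraries held 12 to 25 Ikzf2-negative cells. Absence of a UMI does not show absence of the transcript, so the negative cells are those in which Ikzf2 was not captured. Of 1528 genes tested, 42 were higher and 36 lower in Ikzf2-positive cells, which is 5.1% in all, 2.75% upward and 2.36% downward. TMM factors gave 33 (2.16%) and 52 (3.4%), 5.56% in all, with the median gene at 0.007 in place of 0.06.

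Tnfrsf4, Nrp1, and Il2rb were higher with Ikzf2 and kept their call under every alternative in which they could be tested. Tnfrsf4 was at 166, 291, 360, 279, and 168 CPM in Ikzf2-positive and 55.1, 89.2, 44.2, 11.5, and 104 CPM in Ikzf2-negative cells, a log2 difference of 2.10 ± 0.32 (edgeR adjusted p = 1.5e-08). Nrp1 was at 172, 220, 186, 135, and 229 CPM against 55.1, 53.5, 88.4, 46.1, and 29.7 CPM, a log2 difference of 1.81 ± 0.35. Il2rb was at 394, 272, 347, 386, and 290 CPM against 303, 143, 44.2, 150, and 119 CPM, a log2 difference of 1.22 ± 0.24. Libraries overlapped for Il2rb through library 1 of the negative cells, and not for Tnfrsf4 or Nrp1. Tnfrsf18 rose by 1.29 ± 0.29, Izumo1r by 0.84 ± 0.20, the chromatin histone gene H2afz by 1.43 ± 0.15, Itgb1 by 1.49 ± 0.32, and the exhaustion-associated factor Tox by 1.35 ± 0.30. The call of Tnfrsf18 was lost without library 4, at 1.07 with an edgeR adjusted p of 0.0505. Il2ra rose by 0.79 ± 0.22 but lost its call without library 2, 3, or 5, with log2 differences of 0.73, 0.79, and 0.64, and Ctla4 did not pass (0.75, adjusted p = 0.22). Of the 24 named genes called in this split, 20 lost their call in at least 1 alternative, 7 of them in thinned cells. Most calls given here after Il2rb therefore did not hold throughout.

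Cd74, the MHC class II invariant chain, had the largest difference in this split. It was at 271, 437, 152, 194, and 236 CPM in Ikzf2-positive and 82.7, 0, 22.1, 46.1, and 14.9 CPM in Ikzf2-negative cells, a log2 difference of 2.98 ± 0.37. Cd74 UMIs were found in 56 of 310 positive and 7 of 90 negative cells, and 89 of the 284 UMIs in positive cells came from 1 cell of library 2. Without library 2 the difference was 2.42 and still passed. Among cells without other B cell, myeloid, NK, and gamma-delta transcripts Cd74 was removed by the filter on low counts, and the part of B cell RNA in this difference was not tested.

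The CPM values of the effector genes S100a6, S100a4, and Lgals1 were higher in Ikzf2-negative than in Ikzf2-positive cells of library 5. For each gene 1 cell carried most UMIs of those negative cells, and whether it was the same cell was not examined. S100a6 was at 806, 508, 499, 611, and 465 CPM in Ikzf2-positive and 27.6, 17.8, 0, 69.1, and 921 CPM in Ikzf2-negative cells, a log2 difference of 1.58 ± 0.20. In library 5, 55 of the 62 S100a6 UMIs of negative cells came from 1 of 21 cells. In all libraries together 89 of 310 positive and 8 of 90 negative cells held an S100a6 UMI. Without library 5 the log2 difference was 4.05, and the call was lost without the library block (adjusted p = 0.068) and in the stricter gate (adjusted p = 0.27). In library 5 alone, 27.5% of positive and 14.3% of negative cells held an S100a6 UMI, 15% and 14.3% an S100a4 UMI, and 37.5% and 23.8% an Lgals1 UMI, so by cells no gene was higher in the negative ones. For S100a4 28 of 42 and for Lgals1 21 of 29 UMIs of the negative cells of library 5 came from 1 cell. Differences in S100a4 (1.17 ± 0.25) and Lgals1 (1.20 ± 0.23) depended on library 5 too, at 4.17 and 2.05 without library 5, and both lost their call in the stricter gate. S100a4 also lost its call without library 2, 3, or 4, where the log2 difference was 0.85, 0.89, and 0.81.

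Genes lower in Ikzf2-positive cells included Lef1 and S1pr1. Lef1 was at 178, 217, 178, 201, and 145 CPM against 248, 267, 376, 380, and 297 CPM and fell by 0.78 on the log2 scale (adjusted p = 0.012). Grap2, an adaptor of T cell receptor signalling, was at 148, 126, 157, 144, and 83.8 CPM against 358, 303, 309, 242, and 193 CPM and fell by 1.05. S1pr1 fell by 0.71, the actin crosslinker Actn1 by 1.08, the Tec family kinase Txk by 0.86, and Slfn1, a schlafen gene of quiescent T cells, by 1.14. Lef1 lost its call without library 3, 4, or 5, S1pr1 without library 3 or 4, Actn1 without library 3 or 4, Txk without library 4 or 5, and Slfn1 without library 2. Their log2 differences were then -0.71 to -0.73 for Lef1, -0.57 and -0.69 for S1pr1, -0.997 and -1.11 for Actn1, -0.74 and -0.81 for Txk, and -1.04 for Slfn1. Of 7 central regulatory T cell genes tested, 2 were lower and none was higher (median -0.54), and of 6 effector genes tested 4 were higher and none was lower (median 1.18), against a median of 0.06 over all genes. Of all genes tested in this split, 2.75% were higher and 2.36% lower.

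**Figure D5:**
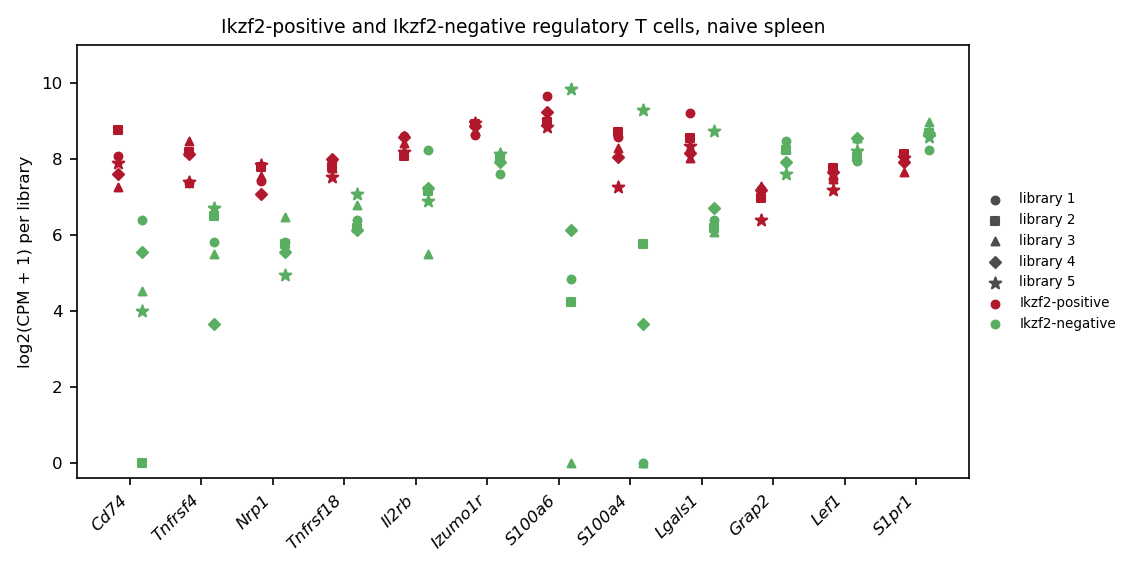
Log2(CPM + 1) per library of genes named in the text, in Ikzf2-positive and Ikzf2-negative regulatory T cells of the naive spleen. S100a6, S100a4, and Lgals1 are higher in negative than in positive cells in library 5, in contrast to libraries 1 to 4. For each of these genes 1 negative cell of library 5, not shown to be the same one, carried most of the UMIs.

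The same rule was applied to rejecting kidney grafts, where it found 49 regulatory T cells among 11948 CD45+ cells (0.410%), 23 in library 2 and 26 in library 3. They held 37634 and 87124 UMIs, and their median depth was 2040 UMIs per cell. A Cd4 UMI was found in 20 of the 49, so the other 29 were placed in the CD4 lineage by the lack of CD8 transcripts alone. Of the 49, 22 were in the authors' matrix of CD8 T cells, so the label of those cells is in conflict. Conventional cells by the same rule numbered 230, none of them in that matrix. Tissue, host strain, transplantation, and library preparation cannot be told apart in this comparison.

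Between kidney and spleen 4090 genes were tested in regulatory T cells, and 856 were higher and 249 lower in the kidney, which is 27% of genes, 20.9% upward and 6.09% downward. Plain totals put the median gene 0.31 log2 units higher in the kidney, and TMM factors, with a median of -0.08, gave 555 (13.6%) and 473 (11.6%). Without the 22 cells in conflict, an alternative added after the data were seen, 666 genes were higher and 193 lower. Ctla4 was at 1568 and 1584 CPM in the kidney against 85.6 to 185 CPM in the spleen, a log2 difference of 3.58 ± 0.21 (edgeR adjusted p = 2.2e-13). It was 3.70 without the 22 cells. Ikzf2 was at 2285 and 1733 CPM and rose by 0.88 ± 0.18, but did not pass with TMM factors (0.48, adjusted p = 0.0585). Il2ra, at 399 and 528 CPM against 271 to 391 CPM, did not pass (0.61, adjusted p = 0.067), but passed without spleen library 3 (0.69) or kidney library 2 (0.74).

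Several activation genes were higher and several resting genes lower in kidney regulatory T cells. Icos was at 1063 and 872 CPM and rose by 2.87 ± 0.22, Tnfrsf9 by 2.45 ± 0.42, Tnfrsf4 by 1.58 ± 0.27, Entpd1 by 3.57 ± 0.48, Ccr2 by 4.32 ± 0.32, Tigit by 6.04 ± 0.65, and Il10 by 2.97 ± 0.77. Gzmb was at 319 and 838 CPM against 3.22 to 50.3 CPM, a log2 difference of 4.96 ± 0.43. Klf2 was at 53.1 and 34.4 CPM against 408 to 599 CPM and fell by 3.62, Bcl2 by 4.21, Il7r by 2.47, and Lef1 by 1.41. Izumo1r fell by 0.94. All of these kept their call without the 22 cells. The call of Il10 was lost without kidney library 2 (2.14), and those of Il7r, Lef1, and Izumo1r were lost without kidney library 3 (-1.14, -1.01, and -0.25). Further named genes of this comparison also lost their call without kidney library 3, so not every difference is shown to hold in both kidney libraries. No Tcf7 UMI was found in kidney regulatory T cells, and against a floor of 3 counts over both libraries (24.0 CPM) it was at least 9.12-fold lower. Id3 was at least 4.47-fold and Gpr83 at least 3.85-fold lower by the same floor.

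Among the genes with the largest increases in the kidney were some present in kidney conventional cells too. Cmss1 was at 1807 and 1469 CPM in regulatory and 1779 and 1257 CPM in conventional cells of the kidney, against 5.04 to 19.3 CPM in spleen regulatory T cells. Cxcl9, an interferon-induced chemokine, was at 319 and 161 CPM against 94.5 and 273 CPM, and Oprm1 at 372 and 321 against 250 and 193 CPM. B cell markers summed to 1504 to 3454 CPM in kidney regulatory T cells, and of the 3 tested Cd74 (2.68 ± 0.36) and H2-Aa (1.94 ± 0.39) were higher than in the spleen. Myeloid markers summed to 379 to 717 CPM, and of the 3 tested Cst3 (1.12 ± 0.36) was higher, though not with TMM factors (0.73). NK cell markers summed to 413 to 531 CPM, and the only one tested, Nkg7, was higher by 3.42 ± 0.40. Ms4a1, Cd22, Pax5, Cd68, S100a9, Ncr1, and Klrb1c were at 0, which the floor of 24.0 CPM limits, and the part of other cells in these differences was not tested.

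The difference between regulatory and conventional cells was then compared between kidney and spleen as an interaction in edgeR. Of 6676 genes tested, 151 passed (2.26%), with 18 higher (0.27%) and 133 lower (1.99%), which means that 133 genes had a smaller or more negative regulatory difference in the kidney. TMM factors gave 25 (0.374%) and 132 (1.98%), 2.35% in all. All 3 markers were among the 133. The regulatory difference of Il2ra was smaller by 2.93 ± 0.32 log2 units in the kidney, where conventional cells held 145 and 126 CPM in place of 7.19 to 16.7 CPM in the spleen. For Ctla4 the interaction was -2.10 ± 0.25, with 789 and 522 CPM in kidney conventional cells. For Ikzf2 it was -1.28 ± 0.20, with 434 and 387 CPM. At least 2 of the 3 markers were found together in 63 of 230 kidney conventional cells (27.4%), against 80 of 2584 in the spleen (3.096%). Conventional cells had to lack a Foxp3 UMI, at a median depth of 2086 UMIs in the kidney and 3712 in the spleen. The part of these differences in the interactions was not tested. Nrp1 had the reverse order in the kidney, at 239 and 103 CPM in regulatory and 306 and 305 CPM in conventional cells, and its interaction was -3.82 ± 0.37. Of the 15 regulatory T cell-associated genes tested, 7 had a smaller difference in the kidney and none a larger one, with a median of -1.72 against -0.21 over all genes. The interactions of the 3 markers and of Nrp1 passed without the 22 cells, at -3.18, -1.97, -1.45, and -3.56 for Il2ra, Ctla4, Ikzf2, and Nrp1.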

How the data were processed

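The deposited matrices hold counts, that is, whole-number UMI counts per gene and cell. The authors made them from 10x Genomics 3′ libraries of sorted CD45+ cells, and the submitters' processing notes name Cell Ranger and mm10 without a version. Libraries were told apart by the tag that stands before the barcode sequence in each cell name. The members, gene lists and tests were chosen with earlier results of these data known.

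Counts were summed per library and population and tested with edgeR 4.0.16 (quasi-likelihood, filterByExpr, plain totals of each sum) in R 4.3.3, with Benjamini-Hochberg adjustment at 0.05. Regulatory and conventional cells of the same library were paired by a library term, and so were Ikzf2-positive and Ikzf2-negative cells. The comparison of kidney with spleen had no such term. Each SE was derived from the test, as the absolute log2 difference divided by the square root of the edgeR F statistic. Kidney counts came from the kidney's own CD45+ matrix and were summed in the same way. Genes were named when they were markers or described members of a list, or had 1 of the 10 largest changes each way. The latter needed a mean of at least 50 CPM in the higher population and the same direction in every library, and mitochondrial, ribosomal, immunoglobulin and T cell receptor genes were left out. The genes named by size are given here in part, and 2 are not reported.

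Shares of cells were compared after thinning each cell to 1000 UMIs, which left out 1 regulatory and 1 conventional cell. Exact (Clopper-Pearson) 95% intervals cover counting error only. No doublet caller was run, and cells with transcripts of other lineages were left out as an alternative. The other alternatives were TMM factors, DESeq2 1.42.0, no filter on low counts, no library term, thinned or depth-matched cells, other limits on Foxp3 or Cd4 UMIs, and each library left out. Leaving out the kidney cells held in the authors' CD8 matrix was chosen after seeing the data. Steps in Python 3.11.15 used numpy 2.4.6, scipy 1.17.1 and pandas 2.3.3. The count tests were tested on simulated data with known changes. Of 100 changes of 1 log2 unit, 72 were recovered between regulatory and conventional cells and 80 in the Ikzf2 split. Between kidney and spleen 17 were recovered, and in the interaction 7. Of 100 changes of 2 log2 units, 95, 99, 58, and 33 were recovered in the same order. A gene that did not pass in the kidney comparisons may therefore still differ.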

Additional observations from a re-analysis of the deposited data

Results flagged for a closer look

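In 10 of 160 groups of 5 libraries, 1 library stood apart from the other 4 by its gap relative to the range of the group. Chance gives about 1 in 20 such groups. All 10 were in conventional CD4 T cells of the naive spleen, and none was in regulatory T cells. The library was low for Ctla4 (1.33 CPM in library 5), Swap70 (4.94 CPM), and Klf2 (468 CPM). It was high for the other 7 genes, at 65.3 CPM for Gata3, 459 CPM for S1pr1, 96.1 CPM for Cd40lg, 637 CPM for Hbb-bs, 17.6 CPM for Fam129a, 68.7 CPM for H2-Aa, and 32.9 CPM for Tyrobp.

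The regulatory-minus-conventional difference differed between rejecting kidney and naive spleen for 28 named genes, by the edgeR interaction. The difference was smaller or more negative in the kidney for the markers Il2ra (-2.93), Ikzf2 (-1.28), and Ctla4 (-2.10). The same held for the regulatory T cell-associated genes Tnfrsf4 (-2.27), Capg (-1.64), Nrp1 (-3.82), Izumo1r (-1.72), Nt5e (-2.57), Itgb8 (-3.85), and Entpd1 (-2.78). Among genes named by the size of their interaction, it was more positive in the kidney for Atp8b4 (5.64), Cd55 (4.08), Prf1 (2.85), Pde3b (2.74), Tent5a (2.62), Txk (2.23), Ifi214 (2.18), S1pr1 (1.92), and Rala (1.79). It was more negative for Cx3cr1 (-6.54), Tox2 (-5.49), Tbc1d4 (-4.24), and Lrig1 (-3.97). Tbc1d4, a Rab GTPase regulator, was at 26.6 and 34.4 CPM in kidney regulatory and 572 and 324 CPM in kidney conventional cells.

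No UMI of Tcf7 (-9.83), Trip4 (-9.17), Btla (-8.86), Ldah (-8.86), or Gtpbp4 (-8.61) was found in kidney regulatory T cells, so these fitted interactions depend on the prior count and are no bounds. Of the 28 calls, 11 were lost when the kidney cells held in the authors' CD8 matrix were left out. These were Itgb8, Cd55, Prf1, Tent5a, S1pr1, Rala, Trip4, Btla, Ldah, Gtpbp4, and Lrig1. Without kidney library 3, 15 calls were lost, those of Nt5e (-1.13), Itgb8, Entpd1 (-1.84), Cd55, Tent5a, Txk (1.44), Ifi214 (1.39), S1pr1 (0.32), Rala, Trip4, Btla, Ldah, Gtpbp4, Cx3cr1, and Lrig1. Without kidney library 2, 11 were lost, those of Itgb8, Atp8b4 (3.73), Cd55, Prf1 (2.17), Tent5a, Rala, Trip4, Btla, Ldah, Gtpbp4, and Lrig1 (-2.81).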

How the results depend on the processing

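Of the named genes called, 26 of 79 lost their call in at least 1 alternative for regulatory against conventional cells, as did 20 of 24 in the Ikzf2 split, 18 of 39 between kidney and spleen, and 19 of 28 interactions. Genes filtered out or left without an adjusted p in an alternative were not counted as lost there. The number of genes tested also changed. Between regulatory and conventional cells 1144 of 7150 genes tested became 542 of 7150 in DESeq2 and 418 of 3571 in thinned cells. They became 451 of 3690 in depth-matched cells and 534 of 6917 among members with a Cd4 UMI. With 1 library left out they were 916 to 1118. Socs1, Cd27, Id2, and Junb lost their call among members with a Cd4 UMI alone. Il2rg turned to -0.0439 with TMM factors, -0.0374 in DESeq2, -0.00445 in thinned cells, and -0.00324 with at least 2 Foxp3 UMIs. Mki67 rose to 1.34 and passed among members with a Cd4 UMI, turned to -0.26 in DESeq2 and -0.48 with at least 2 Foxp3 UMIs, and ran from -0.44 (without library 4) to 0.83 with 1 library left out. Top2a turned to -0.18 with at least 2 Foxp3 UMIs, and Stmn1 to 0.16 among members with a Cd4 UMI. In the Ikzf2 split 78 of 1528 genes tested became 40 in DESeq2, which gave no adjusted p for 1037 of the 1528. Without the library block they were 42 of 1528, and in the stricter gate 29 of 1262. In thinned cells they were 2 of 361, and in depth-matched cells 39 of 811. With 1 library left out they were 32 to 81, at 39, 49, and 32 without library 2, 3, or 4. Between kidney and spleen 1105 genes became 727 in DESeq2, 488 in thinned cells, 432 with a Cd4 UMI, and 586 with at least 2 Foxp3 UMIs, and were 715 (without kidney library 3) to 1057 with 1 library left out. The 151 interactions became 69 in DESeq2, 92 without the library block, 61 in thinned cells, and 79 with a Cd4 UMI, and were 71 (without kidney library 3) to 167 with 1 library left out. Without the library block 1045 genes were called between regulatory and conventional cells, so the pairing moved that count little. With 1 kidney library the lone library was assumed to vary like the others. Averaged over libraries, Il2ra, Ikzf2, and Ctla4 were detected in 24.0%, 54.4%, and 10.2% of thinned cells, in 45.4%, 77.0%, and 31.1% without thinning, and in 12.3%, 39.5%, and 5.18% at 500 UMIs. In each case the cause was not tested. Genes with few UMIs, such as Il10 and Klrg1, were filtered out of the comparison of regulatory with conventional cells, and the kidney values rest on 49 cells.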
